A study of Mus musculus with 26 samples.

Results

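The calcium pump ATPases are membrane proteins that move calcium out of the cytosol at the cost of ATP. Their 9 genes among the 23337 genes of the count tables were chosen by symbol as the plasma membrane, sarcoplasmic and secretory calcium pumps, and the family was selected on a measured value as well, the fall of *Atp2b3* in the ArKI initial segment. They are the plasma membrane pumps *Atp2b1*, *Atp2b2*, *Atp2b3* and *Atp2b4* (PMCA), the sarcoplasmic and endoplasmic reticulum pumps *Atp2a1*, *Atp2a2* and *Atp2a3* (SERCA), and the secretory pathway pumps *Atp2c1* and *Atp2c2* (SPCA). Because the ArKI against WT contrast of the initial segment helped to choose the family, values of the members in that contrast are given as a description, with no test. Calls in that contrast are given for other genes only.

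ArKI mice carry a knock-in in which lysines of the targeted protein that accept SUMO are replaced by arginines. At 3 months of age, 5 WT and 5 ArKI mice gave RNA of the epididymal initial segment (IS) and caput, and 3 mice of each genotype gave RNA of the testis, all on a C57Bl/6N; 129 hybrid background. The change is in the germ line and not limited to a tissue, and the line was made in hybrid embryonic stem cells. Whole tissue was sequenced, so fewer cells of a type and less RNA per cell cannot be told apart. Testis libraries form one sequencing batch and the epididymal libraries another, so a tissue and its batch cannot be told apart. Levels are read counts relative to the library total (CPM), scaled by TMM over all 26 samples. Levels of the listed genes that work beside the pumps were scaled within each tissue instead. Those of the genes most like *Atp2b3* were scaled over the epididymal samples.

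The IS libraries held 5829074 to 9770625 counts, the caput libraries 4125768 to 11913469 and those of testis 14077013 to 21376604. The smallest total was that of ArKI caput replicate 2. A gene with 3 counts, taken as the floor, was worth 0.294 to 0.481 CPM (IS), 0.238 to 0.641 CPM (caput) or 0.172 to 0.258 CPM (testis), which covers counting error only. The knock-in alters codons, so counts per gene do not check the genotype labels. Of 6 genes listed for IS principal cells, *Lcn8*, *Lcn9* and *Adam28* averaged 5017 to 12932 CPM in the WT IS and 110 to 491 CPM in the WT caput, whereas *Defb15* was higher in the caput. Of 6 genes listed for caput principal cells, *Lcn5* averaged 14516 CPM in the WT caput and 79.2 CPM in the WT IS and *Lcn6* 572 and 383 CPM, whereas the other 4 were higher in the IS, among them *Crisp1* at 1981 against 360.4 CPM. The second list as a whole therefore did not separate the segments. Summed CPM of 10 spermatid and sperm genes ranged from 26322 to 32261 in the testis.

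Calcium in the lumen of the epididymis is known to be low where sperm mature, and the lining epithelium and the sperm themselves both carry calcium pumps. PMCA proteins push calcium across the cell surface and are switched on by calmodulin. SERCA proteins refill the endoplasmic reticulum, from which signals release calcium, and SPCA proteins load the Golgi with calcium and manganese for secreted proteins. *Atp2b1* is the broadly used PMCA, *Atp2b2* is known from hair cells and the lactating mammary gland, *Atp2b3* is best known from brain, and *Atp2b4* is required for sperm motility. *Atp2a2* is the broadly used SERCA and the cardiac pump, *Atp2a1* serves fast skeletal muscle, and *Atp2a3* is found in blood cells, endothelium and some epithelia. *Atp2c1* is broadly used, and *Atp2c2* is known from secretory epithelia.

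All of these pumps take a phosphate from ATP onto the same aspartate, and the coding sequence around that residue is shown for 7 members, those whose window is reported here, to let a reader see how alike the genes are there. Other ion pumps of the same class share this residue. The capitals mark the aspartate codon, with 12 bases before it and 27 after it, from the transcript with the longest open reading frame in the GENCODE annotation of GRCm38.
Atp2b1: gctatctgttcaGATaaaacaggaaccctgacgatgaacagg
Atp2b2: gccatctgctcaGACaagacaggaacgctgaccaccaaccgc
Atp2b4: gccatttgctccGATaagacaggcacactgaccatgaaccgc
Atp2a1: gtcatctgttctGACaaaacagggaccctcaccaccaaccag
Atp2a3: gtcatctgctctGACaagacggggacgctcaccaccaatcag
Atp2c1: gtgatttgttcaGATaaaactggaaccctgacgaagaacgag
Atp2c2: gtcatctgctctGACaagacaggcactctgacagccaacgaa

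Over these 42 bases, 23 were the same in these 7 genes. Pairs within a subfamily shared 28 to 37 bases over 5 pairs, and pairs across subfamilies shared 26 to 35 over 16 pairs, so the ranges overlapped. Reads were 50 bp long, and few stretches of that length were shared. Of the 4818 different stretches of 50 bases in the coding transcripts of *Atp2b3*, 7 also occurred in another member and 1 in another gene. The largest share with another member was 0.145%, for *Atp2b3*, and the largest with any other gene was 3.88%, for *Atp2a2*. Exons of *Atp2a1*, *Atp2a2*, *Atp2b4* and *Atp2c1* overlapped an exon of another annotated gene (*Rabep2*, *Gm43361*, *Mir6903* and *Aste1*), and reads there may have been assigned differently by the counting.

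Per kilobase of exon, the plasma membrane pumps were the largest subfamily in the caput and the SERCA pumps in the testis. In WT mice the summed PMCA level was 145 ± 15.03 CPM per kilobase for the caput, 68.5 ± 4.48 for the IS (SD, n = 5 each) and 21.5 ± 1.30 for the testis (SD, n = 3). The SERCA sum was 104 ± 5.98, 77.7 ± 5.37 and 54.8 ± 3.27 CPM per kilobase in the same order, and the SPCA sum 8.92 ± 0.389, 11.98 ± 0.432 and 10.2 ± 0.235. Of the 3 sums, that of SPCA varied least between the tissues on this scale.

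**Figure D1:**
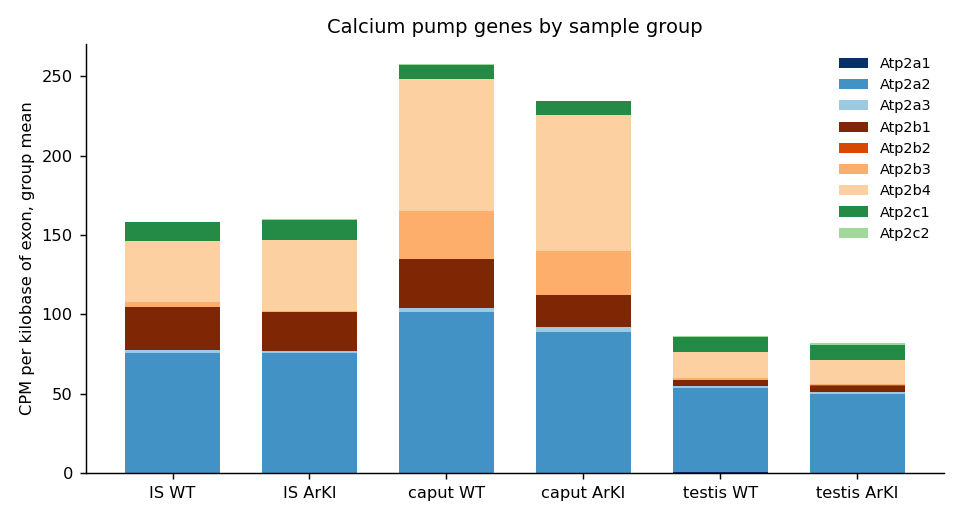
Mean CPM per kilobase of exon of the 9 calcium pump genes, stacked, in each sample group (n = 5 in IS and caput, n = 3 in testis). *Atp2a2* and *Atp2b4* make up most of each bar, and *Atp2b3* forms a visible layer in the caput groups, where it is 30.3 CPM per kilobase in WT and 27.8 in ArKI.

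*Atp2a2* and *Atp2b4* ranked first and second per kilobase in all 6 groups. In the WT IS *Atp2a2* had 75.5 ± 5.50 CPM per kilobase (SD, n = 5), *Atp2b4* 38.5 ± 3.39, *Atp2b1* 27.1 ± 1.56 and *Atp2c1* 11.7 ± 0.367. *Atp2b3* came next with 2.90 ± 0.388, and *Atp2a3* had 2.05 ± 0.254, and the ranges of this pair overlapped. In the WT caput *Atp2b1* and *Atp2b3* did not differ beyond their spread, with 30.9 ± 2.19 and 30.3 ± 8.21 CPM per kilobase. *Atp2b3* took 11.7% of the summed pump level there, 1.84% in the WT IS and 0.434% in the ArKI IS. In the WT testis *Atp2a2* took 61.2% and *Atp2b4* 19.3%. Shares depend on the exon length used: with the longest coding transcript in place of all exons, *Atp2b4* took 38.3% and *Atp2a2* 37.3% of the WT caput, which turns their order.

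*Atp2b3* lies on the X chromosome (GRCm38 chrX:73503086-73571005, plus strand). In the WT IS its 5 samples had 11.0, 14.3, 16.1, 14.6 and 13.7 CPM, from 96 to 140 counts. In the ArKI IS they had 2.88, 3.60, 4.47, 2.56 and 3.22 CPM, from 16 to 33 counts. Every ArKI sample lay below every WT sample, and all were above the 3-count floor. The means were 14.0 ± 1.87 and 3.35 ± 0.738 CPM (SD, n = 5), and the log2 fold change was -2.05 with a standard error (SE) of 0.15. Leaving out single samples or changing the method moved it between -2.17 and -1.98. These are the values that chose the family.

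In the caput, which had no part in the choice, the pump gene was abundant in both genotypes. The WT caput samples had 189, 102, 149.7, 109 and 179 CPM of *Atp2b3*, and the ArKI samples 138, 153, 93.0, 131 and 155 CPM. The groups overlapped over most of their range. The log2 fold change was -0.14 (SE 0.22, edgeR adjusted p = 0.70), with a 95% interval from -0.57 to 0.29. In the testis the WT samples had 4.30, 3.44 and 3.60 CPM and the ArKI samples 4.24, 3.85 and 3.47. The testis log2 fold change was -0.01 (SE 0.18, edgeR adjusted p = 0.99).

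**Figure D2:**
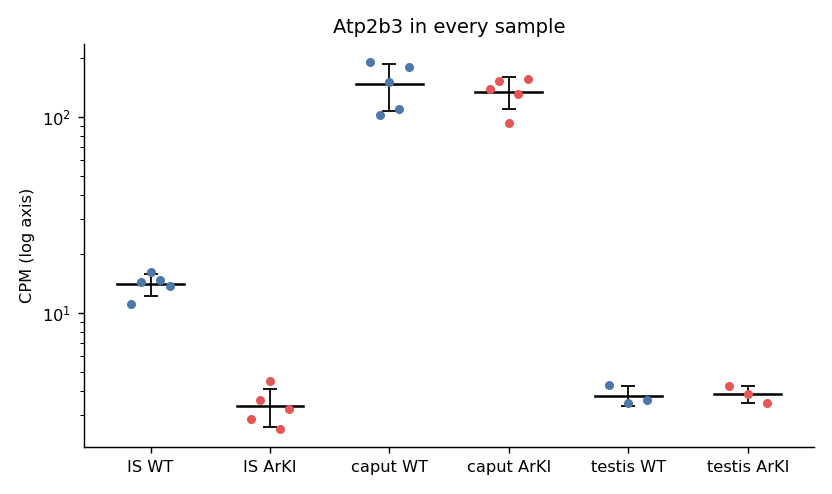
CPM of *Atp2b3* in each sample on a log axis, WT in blue and ArKI in red, with the group mean and SD in black (n = 5 in IS and caput, n = 3 in testis). The ArKI IS samples sit between 2.56 and 4.47 CPM, close to the testis, the WT IS samples between 11.0 and 16.1, and the caput samples of both genotypes overlap between 93.0 and 189.

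The IS mean of *Atp2b3* was 9.56% of the caput mean in WT and 2.50% in ArKI mice. As a description, its log2 difference of caput against IS was 3.39 (SE 0.24) in WT and 5.30 (SE 0.19) in ArKI. Since *Atp2b3* is so much higher in the caput, genes with the same contrast between segments were examined. Other than *Atp2b3*, 277 genes were over 8-fold higher in the WT caput than in the WT IS, and 124 of them passed the filter in the ArKI against WT contrast of the IS. Of these, 26 fell and 27 rose at an adjusted p below 0.05 by edgeR, where 14.6% of all genes tested in the IS fell and 15.0% rose, and their median log2 fold change was 0.10. The WT IS samples both chose these genes, by low values, and enter this contrast. A gene low in the WT IS could pass the filter through ArKI samples alone. The split and the median are therefore partly set by the choice, and nothing is read from them. Fits below that of *Atp2b3* were found for 5 of the 124. Their summed level ranged from 2957 to 5800 CPM in the WT IS and from 2424 to 6562 CPM in the ArKI IS, so the sums overlapped. Lists of other cell types moved as well. The summed level of 6 endothelial genes was 90.1 to 110.0 CPM in the ArKI and 133 to 166 CPM in the WT IS, that of 10 neuronal and glial genes 23.7 to 27.2 and 31.7 to 40.1 CPM, and that of 5 basal cell genes 269 to 296 and 351 to 399 CPM. For 8 smooth muscle genes it was 2766 to 3300 and 3359 to 3590 CPM, and none of these pairs of ranges overlapped. Most of the smooth muscle sum was *Actg2*, at means of 2716 CPM in ArKI and 2912 CPM in WT, and the other genes of that list differed by more, with *Acta2* at 108 and 206 CPM, *Myh11* at 86.7 and 178 CPM and *Cnn1* at 16.1 and 34.6 CPM. For the lists of endothelial, basal cell and smooth muscle genes no gene was at 0 in either group, and 1 of the 10 neuronal and glial genes was. Of the neuronal and glial genes, *Uchl1* carried the difference, at means of 15.9 CPM in ArKI and 27.8 CPM in WT, while *Nefm* went the other way, at 2.31 and 0.540 CPM. The sum of 10 striated muscle genes was also lower, at 4.17 to 5.15 CPM in ArKI and 5.77 to 10.7 CPM in WT, with 2 and 3 of them at 0, and that of 6 erythroid genes was higher, at 2.72 to 3.39 against 0.976 to 2.41 CPM, with 4 at 0 in both groups. The summed 10 sperm genes overlapped at 62.7 to 84.3 and 76.6 to 143 CPM, but this sum was mostly *Odf2*, at 64.7 CPM in ArKI and 66.6 CPM in WT. Of the 10, 9 had a lower mean in the ArKI than in the WT IS, among them *Prm2* at 0.751 and 12.9 CPM, *Smcp* at 0.817 and 5.32 CPM and *Odf1* at 0.923 and 4.94 CPM, and *Spata18* had a higher mean. The part of these lists in the IS values was not tested.

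Among the 42 genes within 1 Mb of *Atp2b3* that were tested in the IS, 5 rose and 5 fell, beside the 15.0% and 14.6% of all genes, with log2 fold changes from -0.82 to 0.93. Of 414 other tested X-linked genes, 88 rose and 52 fell, and none had a lower fit than -2.03. This neighbourhood was looked at after the value of *Atp2b3* was known.

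Among the 5 genes whose levels followed *Atp2b3* most closely over the 20 epididymal samples were *Anxa3* (an annexin, Pearson r = 0.995), *Wfdc8* (a WAP domain protein, 0.992), *Ramp3* (a receptor partner, 0.990) and *Enpp1* (an ectoenzyme of nucleotides, 0.988), out of 14328 genes. The likeness rests on log2(CPM + 0.5) values of 4 groups that stand apart, and the samples share segment and genotype. Since the choice by likeness used the same samples, a shared pattern was fixed by it, and the levels are a description. *Ramp3* averaged 16.8 CPM in the WT IS, 6.16 in the ArKI IS, 172 in the WT caput and 152 in the ArKI caput. *Enpp1* averaged 43.5, 15.1, 858 and 601 CPM in the same order. *Anxa3* had 34.8, 20.7, 105 and 108 CPM.

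Among the other pumps in the IS, *Atp2a3* was the one whose groups also did not overlap, where 2687 of the 13434 genes tested had such groups. It had 11.1, 10.1, 8.13, 9.12 and 8.83 CPM in the WT and 7.13, 5.60, 5.01, 6.25 and 6.32 CPM in the ArKI samples, a log2 fold change of -0.63 (SE 0.14). *Atp2b4* averaged 459 ± 40.4 and 534 ± 24.5 CPM (SD, n = 5), a log2 fold change of 0.22 (SE 0.06). The remaining fits were -0.13 for *Atp2b1*, 0.11 for *Atp2c1* and 0.00 for *Atp2a2*. Of the 9 members 6 passed the filter on low counts, and no calls are given for them, since this contrast chose the family.
Among the members under the filter, *Atp2a1* had 2 to 4 counts in WT and 0 to 5 in ArKI samples, and *Atp2b2* had 1 to 7 and 1 count in each. *Atp2c2* had 4 to 10 counts in WT and 7 to 27 in ArKI samples, at a mean of 0.773 ± 0.338 and 1.82 ± 1.06 CPM (SD, n = 5).

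In the caput, *Atp2b1* was the tested pump that differed most between genotypes. Its levels were 220.1, 237, 196, 219.7 and 230.3 CPM in WT and 159, 121, 144, 134 and 149.7 CPM in ArKI samples. All ArKI samples were below all WT samples. The log2 fold change was -0.65 (SE 0.07, edgeR adjusted p = 1.3e-06), a fall to 0.64 of the WT level, and it ranged from -0.69 to -0.60 over the alternatives. *Atp2a2* also fell. It had 533, 538, 506, 510.1 and 584 CPM in WT and 496, 421, 461, 468 and 501 CPM in ArKI samples, again without overlap, and a log2 fold change of -0.20 (SE 0.06, edgeR adjusted p = 0.013). Over the alternatives this adjusted p stayed between 0.0019 and 0.046.

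**Figure D3:**
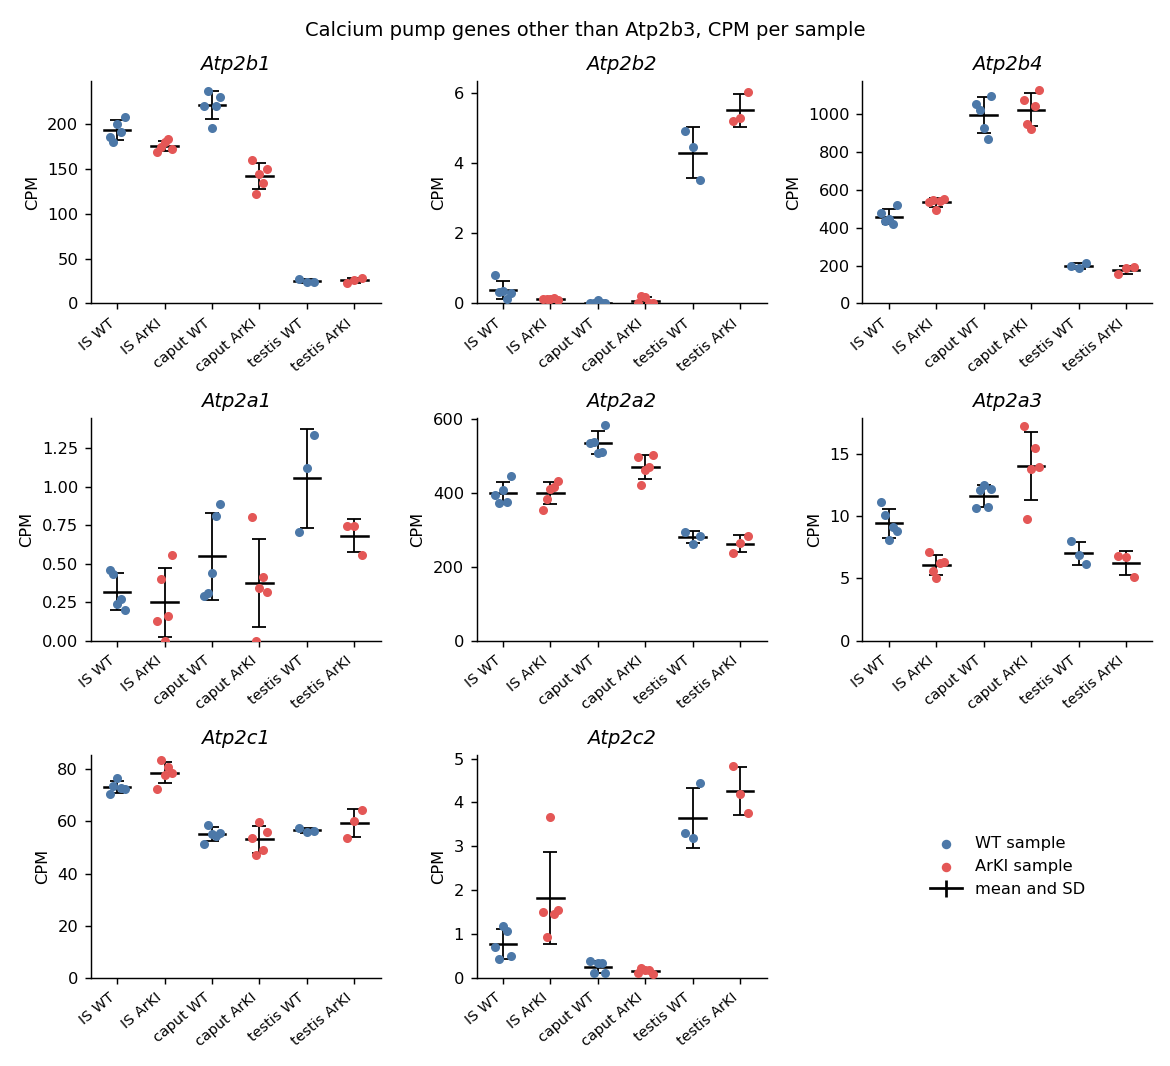
CPM of the other 8 calcium pump genes in each sample, WT in blue and ArKI in red, with the group mean and SD in black (n = 5 in IS and caput, n = 3 in testis). *Atp2b1* is lower in all ArKI than in all WT caput samples (121 to 159 against 196 to 237 CPM), and *Atp2b2* and *Atp2c2* are highest in the testis.

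The most abundant PMCA, *Atp2b4*, had a log2 fold change of 0.03 in the caput (SE 0.07, edgeR adjusted p = 0.79, 95% interval -0.11 to 0.17). For *Atp2c1* it was -0.06 (SE 0.06, edgeR adjusted p = 0.54, 95% interval -0.17 to 0.06). *Atp2a3* had 10.7, 12.1, 12.6, 10.7 and 12.2 CPM in WT and 17.3, 9.83, 13.8, 15.5 and 14.0 CPM in ArKI caput samples. Replicate 2 was the lowest ArKI sample and lay below the WT range, and the other 4 lay above it. The log2 fold change was 0.28 (SE 0.11, edgeR adjusted p = 0.078), and without ArKI caput replicate 2 it was 0.36 with an adjusted p of 0.011.
The summed levels of cell type lists moved in the caput too. The sperm genes were 302 to 449.6 CPM in WT and 92.3 to 155 CPM in ArKI samples, and the endothelial genes 56.7 to 62.8 and 66.8 to 89.5 CPM, without overlap in either list. The 6 Sertoli cell genes did not overlap either, at 67.4 to 75.5 and 90.6 to 107 CPM, mostly by *Sox9*, at means of 52.2 CPM in WT and 87.7 CPM in ArKI, while *Cldn11* had 16.8 and 6.73 CPM, and 2 of the 6 were at 0 in WT and 1 in ArKI samples. Among the endothelial genes the largest difference was that of *Kdr*, at means of 15.5 CPM in ArKI and 7.96 CPM in WT. The smooth muscle genes overlapped at 829 to 1142 and 682 to 1543 CPM. None of the 10 sperm genes and of the 6 endothelial genes was at 0 in either group. Their part in the values of *Atp2b1* and *Atp2a2* was not tested.

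Of the 6 members tested in the caput, 2 fell, 0 rose and 4 gave no call, and 14.0% of the 13726 genes tested fell and 13.7% rose. At an unadjusted p below 0.05, 3 of 6 differed, beside 37.7% of all genes. No member reached the thresholds of the study (FDR below 0.01 and fold change above 2) by edgeR, where 2.43% of genes rose and 2.55% fell, and the groups of 2 of 6 did not overlap, against 20.3% of all genes. The median log2 fold change of the 6 was -0.10, and that of all genes 0.00. *Atp2a1*, *Atp2b2* and *Atp2c2* were under the filter with at most 8 counts in any caput sample. Exact two-sided permutation tests on log2(CPM + 0.5) gave p values of 0.33, 0.44 and 0.16, where the smallest possible is 0.0079.

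In the testis none of the 9 pumps passed the test. Their adjusted p values by edgeR were 0.25 or above, 1 of 9 had an unadjusted p below 0.05 (*Atp2b4*), beside 13.1% of all genes, and no alternative method called any. In comparison, 1.64% of the 15838 genes tested rose and 0.328% fell. At the thresholds of the study for the testis (FDR below 0.2, fold change above 2) 0.751% of genes rose and 0.0821% fell, and no pump did. *Atp2b4* had 197, 185 and 216 CPM in WT and 154, 187 and 190.4 CPM in ArKI samples, a log2 fold change of -0.20 (SE 0.08, 95% interval -0.35 to -0.05, edgeR adjusted p = 0.25). *Atp2b2* was the only member whose groups did not overlap, where 17.8% of all genes had such groups. It had 4.93, 4.48 and 3.52 CPM in WT and 5.21, 5.29 and 6.05 CPM in ArKI samples (log2 fold change 0.32, SE 0.17, edgeR adjusted p = 0.43). The widest interval was that of *Atp2a1*, from -1.32 to 0.08 around -0.62, at 8 to 16 counts per sample. For *Atp2a2* the interval ran from -0.26 to 0.01, and for *Atp2b1* from -0.17 to 0.22.

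**Figure D4:**
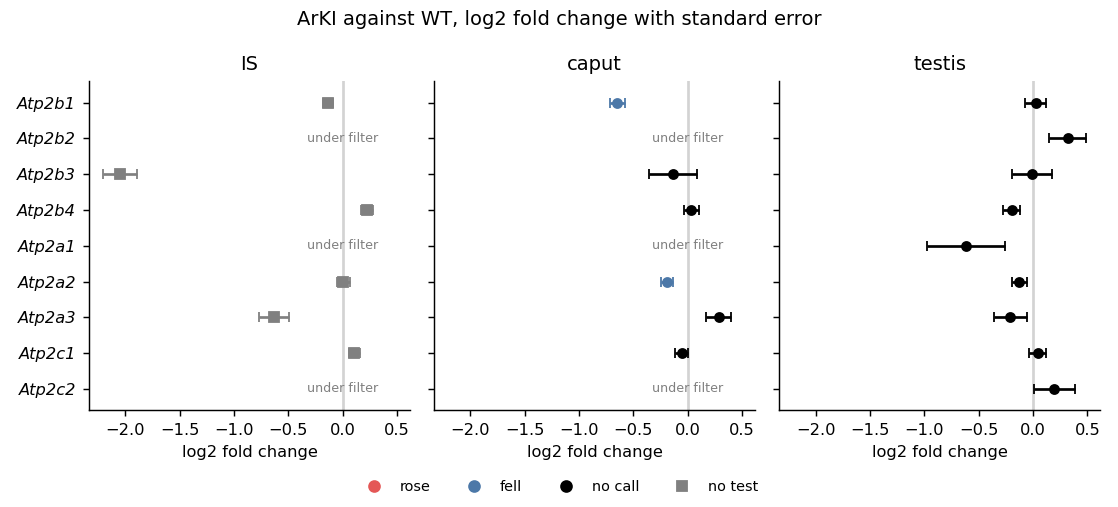
Log2 fold change of each calcium pump gene, ArKI against WT, in the IS, caput and testis, with the standard error as bars. Grey squares were not tested, blue points fell and black points gave no call. *Atp2b3* stands at -2.05 in the IS, and *Atp2b1* at -0.65 and *Atp2a2* at -0.20 in the caput.

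IS and caput were taken from the same 5 mice of each genotype, but which IS and caput samples belong to a mouse is not given, so the fits below treat samples that share animals as independent, and their p values rest on that. Between the segments, *Atp2b4* was the tested pump with the largest difference in WT mice. WT samples averaged 994 ± 94.2 CPM for the caput and 459 ± 40.4 CPM for the IS (SD, n = 5), without overlap, a log2 difference of 1.12 (SE 0.07, edgeR adjusted p = 1e-10). *Atp2a2* was higher in the caput by 0.43, *Atp2a3* by 0.30 and *Atp2b1* by 0.20 on the log2 scale, and the Golgi pump *Atp2c1* was lower at -0.41. Their adjusted p values by edgeR were 7.7e-07, 0.015, 0.0021 and 2.4e-07. The WT levels of *Atp2c1* were 70.6 to 76.8 CPM for the IS and 51.4 to 58.7 CPM for the caput. Thus 4 of 5 tested members were higher and 1 was lower in the caput, where 35.4% of all genes tested were higher and 35.8% lower. Among these tested members, the groups of *Atp2a2*, *Atp2b4* and *Atp2c1* did not overlap and those of *Atp2a3* and *Atp2b1* did. Of all genes, 57.7% had groups without overlap.

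In ArKI mice *Atp2b4* had a log2 difference of 0.93 (SE 0.07, edgeR adjusted p = 2.3e-09) between caput and IS, and *Atp2c1* one of -0.57 (adjusted p = 8.6e-07 by edgeR). *Atp2a3* was higher in the caput by 1.22 on the log2 scale (SE 0.14, edgeR adjusted p = 1.3e-06), at 9.83 to 17.3 CPM, against 5.01 to 7.13 CPM for the IS. *Atp2a2* was higher by 0.23 (adjusted p = 0.0053 by edgeR). *Atp2b1* was lower in the ArKI caput than in the ArKI IS, at -0.32 (SE 0.06, edgeR adjusted p = 3e-04), whereas it was higher in the WT caput. Whether the segment differences of the genotypes differ was not tested, since that would use the IS contrast that chose the family. Of the 5 tested members, 3 were higher and 2 lower in the ArKI caput, where 31.6% of all genes were higher and 32.0% lower. Among the tested members, the groups of *Atp2a3*, *Atp2b1*, *Atp2b4* and *Atp2c1* did not overlap and those of *Atp2a2* did. Of all genes, 49.0% had groups without overlap.

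**Figure D5:**
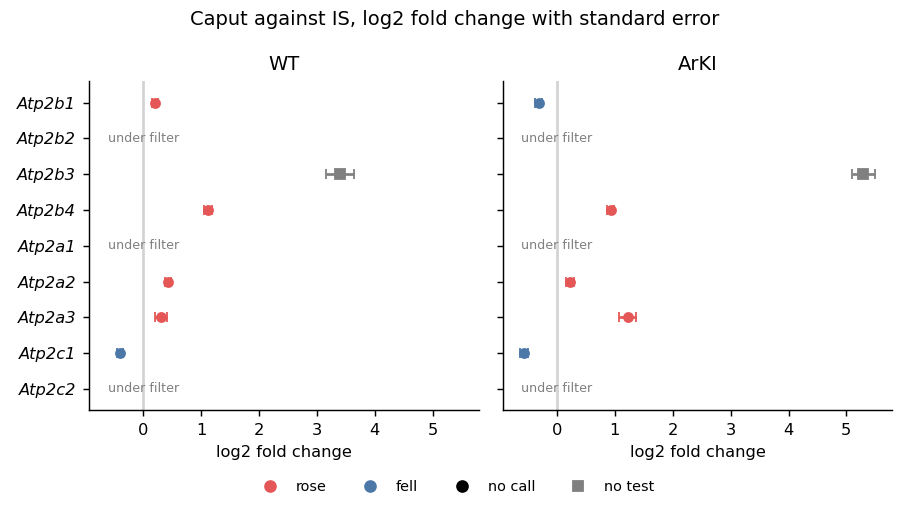
Log2 fold change of each calcium pump gene, caput against IS, in WT and in ArKI mice, with the standard error as bars. Red points were higher and blue points lower in the caput at an adjusted p below 0.05, and grey squares were not tested. *Atp2b1* lies at 0.20 in WT and -0.32 in ArKI mice, and *Atp2b3* is the largest value in both, at 3.39 and 5.30.

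The pumps under the filter were low in both segments. *Atp2c2* had 4 to 10 counts in the WT IS and 1 to 4 in the WT caput, and 7 to 27 counts in the ArKI IS and 1 or 2 in the ArKI caput. Its exact permutation p was 0.0079 in each genotype, the smallest these groups allow, and 0.029 after Benjamini-Hochberg adjustment over 11 such tests. *Atp2b2* had 1 to 7 counts in the WT IS and 0 or 1 in the WT caput, with the same exact p values. Its lowest WT IS sample, replicate 4, and its highest WT caput sample, replicate 3, each had 1 count. At 0.134 and 0.110 CPM, their order rests on the library scaling, so no segment difference is read for *Atp2b2*. In ArKI mice *Atp2b2* had 1 count in each IS sample and 0 to 2 in the caput, with an exact permutation p of 0.17. *Atp2a1* gave exact permutation p values of 0.14 in WT and 0.50 in ArKI mice. Of these levels only those of *Atp2c2* in the IS and of *Atp2b2* in the WT IS and *Atp2a1* in the caput went beyond 5 counts in any sample.

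The testis used the same leading pumps at lower levels and added a pair that was scarce in the epididymis. Across tissues the median log2 difference of all genes was 0.19 for testis against IS and 0.16 for testis against caput, and with library size scaling it was -0.22 and -0.23, so values are read against these medians. The WT means of *Atp2b1* were 25.1 ± 2.20 CPM for the testis (SD, n = 3), 193 ± 11.1 CPM for the IS and 221 ± 15.6 CPM for the caput (SD, n = 5 each). The log2 differences of testis against IS and caput were -2.84 and -3.05, with adjusted p values of 6.9e-21 and 1.8e-21 by edgeR. *Atp2b4*, at 199 ± 15.6 CPM (SD, n = 3) in the WT testis, was at -1.11 against the IS and at -2.23 against the caput, with adjusted p values of 1.8e-11 and 7e-17 by edgeR. *Atp2b3* was 3.78 ± 0.455 CPM (SD, n = 3) in the WT testis, at -5.17 against the caput (SE 0.30, edgeR adjusted p = 9.9e-09) and, untested, at -1.77 against the IS.

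*Atp2a2* averaged 280 ± 16.98 CPM (SD, n = 3) in the WT testis and was at -0.42 against the IS and -0.85 against the caput on the log2 scale, with adjusted p values of 2.5e-06 and 1.6e-11 by edgeR. *Atp2a3* was at -0.63 against the caput (adjusted p = 6.3e-05 by edgeR) and at -0.32 against the IS (adjusted p = 0.023 by edgeR). The last call was lost without WT testis replicate 2 (adjusted p = 0.064, log2 difference -0.30) and without replicate 3 (adjusted p = 0.12, -0.24). *Atp2a1*, the muscle pump, was found at 10 to 16 counts per WT testis sample and 2 to 4 per WT IS sample, with an exact permutation p of 0.018, the smallest possible, and 0.049 after adjustment. Against the caput, with 3 to 8 counts, the exact permutation p was 0.071. Summed WT levels of 10 striated muscle genes were 6.20 to 8.53 CPM (testis), 5.77 to 10.7 CPM (IS) and 10.9 to 16.5 CPM (caput), with 3 of the 10 at 0 in the IS and 1 in the caput.

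*Atp2b2* and *Atp2c2* were higher in the testis, and they passed the filter only through the testis samples, so their differences are given as a description, with no test. *Atp2b2* had 42 to 70 counts per WT testis sample, at 4.31 ± 0.723 CPM (SD, n = 3), but 0 or 1 count per WT caput sample and 1 to 7 per WT IS sample. *Atp2c2* had 37 to 53 counts per WT testis sample, at 3.65 ± 0.689 CPM (SD, n = 3), against 4 to 10 counts per WT IS sample and 1 to 4 per WT caput sample. No fold is given for this pair, since the caput means and most IS samples of *Atp2b2* were at or near the 3-count floor. *Atp2c1* varied little between tissues, at 56.6 ± 0.837 CPM (SD, n = 3) in the WT testis. It was lower than in the IS at -0.28 (adjusted p = 6e-05 by edgeR) and passed as higher than in the caput at 0.12 (adjusted p = 0.038 by edgeR), a value below the median of all genes. That last call was lost without any 1 of the 5 WT caput samples (lowest log2 difference 0.04), and its direction turned with the scaling.

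Leaving out *Atp2b2* and *Atp2c2*, 5 of 5 tested members were lower in the WT testis than in the WT IS, where 49.4% of all genes tested were higher and 42.5% lower. Against the WT caput, 5 of 6 were lower and 1, *Atp2c1*, was higher, beside 43.2% and 48.8% of all genes. Both tallies depend on the method. *Atp2c1* passed as lower than in the caput with library size scaling and with upper-quartile factors. The call of *Atp2a3* against the IS was lost with RLE factors and with DESeq2. Without *Atp2b3*, *Atp2b2* and *Atp2c2*, the groups of *Atp2a2*, *Atp2b1*, *Atp2b4* and *Atp2c1* did not overlap between testis and IS, and those of *Atp2a3* did. Of all genes, 89.6% had groups without overlap there. Between testis and caput, with *Atp2b3* but again without *Atp2b2* and *Atp2c2*, the groups of 6 of 6 members did not overlap, against 89.8%.

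Genes that work beside the pumps were described from lists, 77 of whose 78 genes are in the count tables. They cover release channels, pump regulators and partners, exchangers, store-operated entry, entry channels, the sperm calcium channel, mitochondrial uptake, cytosolic buffers and calcium binding proteins. In the IS 53 passed the filter, and 13 rose and 11 fell at an adjusted p below 0.05 by edgeR, beside 15.0% and 14.6% of all genes tested. The 13 rises include *Ryr2*, whose direction was fixed by the filter. The number of rises is therefore not read against that share. Among partners of the plasma membrane pumps in the IS, 4 of 9 rose and 2 fell. The scaffold gene *Dlg4* went from 17.6 ± 1.46 to 28.8 ± 1.92 CPM (SD, n = 5), a log2 fold change of 0.71, and *Cask*, another scaffold, from 22.3 ± 2.05 to 13.8 ± 1.94 CPM, at -0.69. The groups overlapped for neither. Of 3 tested sodium-calcium exchangers 2 fell, and *Slc8a1*, the main exchanger of the cell surface, went from 11.5 ± 0.365 to 7.33 ± 1.61 CPM (SD, n = 5). Of 5 entry channels 1 rose and 2 fell, among the latter the epithelial channel gene *Trpv6* with a log2 fold change of -0.54.
Of 4 release channels 1 fell, and the number of rises is not read, since the ryanodine receptor gene *Ryr2* passed the filter through the ArKI samples. *Ryr2* is given as counts alone, 10 to 14 in ArKI and 3 to 12 in WT samples. Of 3 SERCA regulators 2 rose, among them *S100a1* at 0.31. Among 16 calcium binding proteins of the endoplasmic reticulum and Golgi 2 rose and 1 fell, with *Rcn3* at 0.34 and *Casq2*, a calsequestrin of cardiac and smooth muscle, at -0.72. The summed smooth muscle genes were lower in the same ArKI samples, as given above for *Atp2b3*, and their part was not tested.

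In the caput 57 of these genes were tested, and 6 rose and 12 fell by edgeR, where 13.7% and 14.0% of all genes did. The 12 falls include *Catsper3* and *Clgn*, whose direction was fixed by the filter. The number of falls is therefore not read against that share. Release channels rose in 3 of 5 cases and fell in 1. *Itpr3*, an inositol trisphosphate receptor, rose from 28.2 ± 4.27 to 41.9 ± 8.89 CPM (SD, n = 5; log2 fold change 0.54, adjusted p = 0.013 by edgeR), *Ryr2* had 0.93 (adjusted p = 0.013 by edgeR) and *Ryr3* -0.64 (adjusted p = 0.029 by edgeR). *Dlg4* was the only one of 9 tested partners of the plasma membrane pumps that passed the test, at 0.53 (adjusted p = 0.005 by edgeR). None of 4 SERCA regulators did. Among 17 calcium binding proteins 2 rose and 5 fell, a number of falls that includes *Clgn* and is not read for that reason. *Rcn1*, a reticulocalbin, went from 512 ± 34.2 to 667 ± 29.8 CPM (SD, n = 5; log2 fold change 0.38, adjusted p = 5.8e-05 by edgeR).
Among the largest falls of the lists was that of the T-type calcium channel *Cacna1h*, with a log2 fold change of -2.72 (adjusted p = 5.3e-09 by edgeR). *Cacna1h* averaged 43.4 ± 8.04 CPM in WT and 6.72 ± 0.982 CPM in ArKI caput samples (SD, n = 5). A further 2 of the 12 falls, those of *Catsper3*, a sperm calcium channel subunit, and *Clgn*, a chaperone of spermatogenic cells, passed the filter only through the WT samples and are given as counts alone. *Catsper3* had 13 to 27 counts in WT and 0 to 5 in ArKI samples, and *Clgn* 16 to 34 and 0 to 12. The summed sperm genes fell in the same samples, as given above for *Atp2b1*, and their part was not tested.

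In the testis 65 were tested, with 3 rises and 1 fall, beside 1.64% and 0.328% of all genes. *Rcn1* went from 7.72 ± 1.83 to 20.9 ± 2.06 CPM and *Rcn3* from 6.87 ± 1.33 to 17.3 ± 2.33 CPM (SD, n = 3), with log2 fold changes of 1.42 and 1.33 and adjusted p values of 9e-07 and 1e-06 by edgeR. *Nucb2*, a nucleobindin, rose by 0.37 (adjusted p = 0.015 by edgeR), and *Cacna1h* fell by 0.27 on the log2 scale (adjusted p = 0.024 by edgeR), from 346 ± 24.7 to 287 ± 13.6 CPM (SD, n = 3). The summed level of 6 Leydig cell genes was 1128 to 1183 CPM in the ArKI and 729 to 941 CPM in the WT testis, with none of the 6 at 0. Its genes went both ways, with *Cyp17a1* at means of 530 CPM in ArKI and 346 CPM in WT and *Cyp11a1* at 311 and 161 CPM, but *Hsd3b1* at 38.5 and 69.9 CPM. The lists of 10 leukocyte genes, at 39.1 to 41.2 and 33.7 to 36.6 CPM, and of 10 neuronal and glial genes, at 131 to 138 and 115 to 130.2 CPM, did not overlap either, with no gene at 0. Most of the former difference was in *Csf1r*, at means of 19.9 CPM in ArKI and 16.6 CPM in WT, while *Emr1* had 6.94 and 7.58 CPM, and most of the latter in *Uchl1* (61.0 and 56.9 CPM) and *Tubb3* (44.9 and 40.9 CPM), while *Sox10* had 2.19 and 3.20 CPM. The part of these lists in the values was not tested.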

How the data were processed

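RNA-seq of 26 mouse tissue samples was used. The authors mapped 50 bp single-end reads to mm10 with STAR and deposited raw read counts per RefSeq gene, made with Subread 1.5.1 from uniquely mapped reads. The sources used here name different library kits, so whether strand was kept is unclear. Members and lists were chosen with earlier results of these data known. Each comparison was fitted on the deposited counts in R 4.3.3 with edgeR 4.0.16 (filterByExpr at its defaults, 10 counts per sample and 15 in all, TMM scaling, robust quasi-likelihood test, Benjamini-Hochberg adjustment over all genes tested), per tissue or genotype, and over 13 WT samples between tissues. Rose and fell mean an adjusted p below 0.05. The study's own test, ROTS, was not run. *Atp2b3* was not tested where IS samples enter, also not for testis against IS, where a test had been planned. Intervals are 95% and normal. Members under the filter were compared by exact two-sided permutation. P-values measure only the spread between these samples. Lengths and transcripts came from GENCODE M21. Beside the members, the 4 rises and 4 falls of largest fold among the pathway lists in each tissue and the 5 genes most like *Atp2b3* were named, except that certain items are not reported here. Alternatives used DESeq2 1.42.0, limma 3.58.1, other scalings and filters, a replicate block, a joint epididymal fit and omission of each sample.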

Additional observations from a re-analysis of the deposited data

Results flagged for a closer look

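In the ArKI IS, replicate 3 stood apart from the other 4 samples for a pair of pumps. Its *Atp2b4* level was 491 CPM beside 537 to 551 CPM, a gap of 0.77 of the group's range, and its *Atp2c2* level was 3.66 CPM beside 0.933 to 1.55 CPM, a gap of 0.773. The critical value for 5 samples is 0.71. Of 26 groups examined, 1.3 would be expected to pass by chance. Without this replicate the log2 fold change of *Atp2b3* in the IS was -2.17.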

How the results depend on the processing

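Of 605 alternative values for member results with an adjusted p in the fits, 577 kept their direction and side of the threshold. A further 12 lost a call, 2 gained one and 14 turned direction. The 577 include *Atp2b2* and *Atp2c2* in WT testis against IS and caput, with 15 alternatives for each gene and comparison. The filter fixed their direction, so these do not speak for the stability of the results. Of 134 alternative values for results without an adjusted p, 132 moved by less than the replicate spread and 2 by more. For *Atp2a2* in the IS, 7 turned direction, down to -0.025 at the lowest. The counts of pumps past the threshold between genotypes and between segments stayed within 1.5 times the reported count under every alternative run, between 2 and 3 in the caput, 0 in the testis, and 5 to 7 and 5 to 6 between WT and ArKI segments. For the testis against IS or caput, the counts read above leave out *Atp2b2* and *Atp2c2*, whose direction the filter fixed. Those counts were not followed over the alternatives, and the calls of *Atp2a3* and *Atp2c1* in them moved, as given below. The tested fits that turned lay between -0.049 and 0.10 after turning, other than *Atp2c1* in WT testis against caput. In the testis, *Atp2b3* gave 0.0046 with library size scaling and from -0.088 to 0.10 when single samples were left out, *Atp2b1* from -0.049 to 0.11 and *Atp2c1* from -0.019 to 0.10. In the caput, *Atp2b4* gave from -0.015 to 0.071 without single samples. *Atp2c1* in WT testis against caput gave -0.27 with library size scaling (adjusted p = 0.00015, edgeR), -0.38 with upper-quartile factors (adjusted p = 1.1e-06, edgeR) and -0.0031 with every gene of at least 1 count, and from 0.04 to 0.14 without single samples. Its call was lost without any 1 of the 5 WT caput samples and without WT testis replicate 1 or 3. *Atp2a3* in WT testis against IS lost its call with RLE factors (adjusted p = 0.12) and DESeq2 (0.15), and in the caput it gained one with library size scaling (adjusted p = 0.044, edgeR). The causes were not tested.

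Replicate numbers were checked for pairing: correlations of same-numbered samples' deviations ranged from -0.17 to 0.20, no pair of groups had all of them over 0.1, and at most 6 of 10 samples in an epididymal pair of groups and 3 of 6 in the testis correlated best with their own number. The segments came from the same mice, but equal numbers are not stated to mark a mouse, so the fits without the block are the ones reported. With the replicate block *Atp2b3* had a log2 fold change of -2.05 in the IS and 0.0041 in the testis, 2 pumps passed in the caput, and *Atp2c1* in testis against caput had an adjusted p of 0.07 by edgeR.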
